A study of Mus musculus with 22 samples.

Results

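Transcript levels of 10 genes of sterol sensing and cholesterol export were followed in mouse splenic monocytes and macrophages with and without oxidised low-density lipoprotein (ox-LDL). The genes were chosen by symbol, 10 of the 55487 genes in the count tables: the liver X receptors Nr1h3 (LXRα) and Nr1h2 (LXRβ), the transporters Abca1, Abcg1 and Abca7, the apolipoproteins Apoe, Apoc1 and Apoc2, the phospholipid transfer protein Pltp and the acyltransferase Lpcat3. The cells came from the spleens of wild-type male C57BL/6 mice, and the study set foamy (lipid-loaded) cells against non-foamy ones. There were 6 libraries of macrophages with ox-LDL (named G to L), 5 of macrophages with vehicle (A to E), 5 of monocytes with ox-LDL (7 to 11) and 6 of monocytes with vehicle (1 to 6). To obtain macrophages, splenic monocytes were kept for 5 days with 200 ng/mL of phorbol myristate acetate (PMA), so cell type, PMA and days in culture cannot be told apart. ox-LDL was given at 50 µg/mL for 24 hours. The labels name no sort or gate and leave unsaid whether replicate libraries stem from different mice or cultures, so a p-value reflects the spread among these libraries, which may be technical.

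Liver X receptors are nuclear receptors that bind oxidised sterols. They act on DNA as partners of retinoid X receptors, and when sterol accumulates in a macrophage they switch on genes that move cholesterol out of the cell. ABCA1 loads lipid-poor apolipoproteins, ABCG1 hands cholesterol to mature HDL particles, APOE and the C apolipoproteins carry lipid, PLTP moves phospholipid between lipoproteins, and LPCAT3 puts polyunsaturated chains into membrane phospholipids. ABCA7 is a close relative of ABCA1 that is known for phospholipid transport and phagocytosis.

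The genes lie on 6 chromosomes of the deposited tables' GRCm38 annotation, with Apoe, Apoc1 and Apoc2 as neighbours on the minus strand of chromosome 7. Apoe (ENSMUSG00000002985) spans 19696109 to 19699188, Apoc1 (ENSMUSG00000040564) 19689481 to 19692660 and Apoc2 (ENSMUSG00000002992) 19671579 to 19677941. Abca1 (ENSMUSG00000015243) lies on chromosome 4 from 53030787 to 53159895 on the minus strand. Abcg1 (ENSMUSG00000024030) lies on chromosome 17 from 31057675 to 31117988 on the plus strand, and Abca7 (ENSMUSG00000035722) on chromosome 10 from 79996494 to 80015572 on the plus strand. Pltp shares 1515 bases of its span on chromosome 2 with Ctsa on the other strand (25189 to 125973 counts per library). Lpcat3 shares 334 bases on chromosome 6 with Emg1 on the other strand (963 to 2383 counts), and the strand setting of the counting is not given in the sources used here, so reads there could not be assigned. Apoc2 shares 6358 bases of its span with Gm44805 on the same strand (0 counts in every library). Nr1h3 shares 6873 bases on chromosome 2 with Gm13783, also on the same strand (0 to 4 counts). How reads that fit both genes were counted is not given either.

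Promoter windows of 300 bases, from 250 before to 50 after a gene's start, were held for 8 of the 10 genes in the RefSeq table for GRCm38.p6, in 11 windows. Abcg1 and Apoc1 had no window there, so their promoters were not searched. Apoe had 3 windows and Nr1h3 had 2, some of which overlap. The LXR and RXR pair is known to bind a direct repeat with 4 letters between its arms, searched here as AGGTCA, 4 free bases and AGGTCA again (DR4) on both strands. With at most 2 mismatches of the 12 fixed letters it was in 0 of the 11 windows and in 3.02% of all 32851 promoter windows. With 3 mismatches, a limit chosen after the stricter search was seen, it was in 1 of the 11, that of Abca1, and in 21.9% of all windows. The match in Abca1 read GGGTTActacCGGTCA on the opposite strand and began 67 bases before the start. The windows of Abca1 and Abca7 are shown because these related transporters stood apart in opposite directions between the cell types. Capitals mark the DR4 arms, GC boxes (GGGCGG, in 35.7% of all windows), E-boxes (CACGTG, 7.15%) and TATA boxes (TATAAA, 13.6%).
Abca1 promoter, chr4:53159846-53160145, minus strand: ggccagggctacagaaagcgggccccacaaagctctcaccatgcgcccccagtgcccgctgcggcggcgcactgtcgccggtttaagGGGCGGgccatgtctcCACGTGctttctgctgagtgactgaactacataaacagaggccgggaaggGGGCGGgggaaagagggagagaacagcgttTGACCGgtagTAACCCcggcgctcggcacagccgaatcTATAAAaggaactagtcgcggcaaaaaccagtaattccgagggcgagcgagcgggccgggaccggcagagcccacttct
Abca7 promoter, chr10:79996244-79996543, plus strand: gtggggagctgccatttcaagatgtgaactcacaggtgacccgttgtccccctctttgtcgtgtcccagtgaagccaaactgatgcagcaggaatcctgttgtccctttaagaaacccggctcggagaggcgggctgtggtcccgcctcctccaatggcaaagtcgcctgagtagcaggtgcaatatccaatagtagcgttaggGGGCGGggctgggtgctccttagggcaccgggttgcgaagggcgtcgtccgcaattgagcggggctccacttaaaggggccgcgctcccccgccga
The Abca1 window held 1 DR4 match with 3 mismatches, 2 GC boxes, 1 E-box and a TATA box beginning 29 bases before the start. The Abca7 window held 1 GC box. A match is a run of letters and not a measured binding site. Sequence outside the windows was not searched, so a lack of matches does not cover it.

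Depth per library, in units of 1000000 counts, was 40.7 to 49.6 in macrophages with ox-LDL, 37.3 to 50.3 in macrophages with vehicle, 38.9 to 48.8 in monocytes with ox-LDL and 42.0 to 48.3 in monocytes with vehicle. Summed over 13 macrophage markers, levels were 33537 to 45736 CPM (counts per 1000000, scaled with TMM factors) with ox-LDL and 32369 to 40999 with vehicle in macrophages, and 9574 to 14783 and 6604 to 9696 in monocytes. The 10 monocyte markers summed to 2628 to 5047 and 3626 to 6316 CPM in macrophages, and to 1326 to 3628 and 1371 to 3859 in the libraries labelled monocytes. The 10 dendritic cell markers summed to at most 19.9 CPM in macrophages and to at least 7258 in monocytes, and the 13 neutrophil markers to at most 95.8 CPM in macrophages and to at least 5316 in monocytes. Erythroid markers summed to at most 2.81 CPM in macrophages and B-cell markers to at most 31.4 (Pax5 at 0), against 439 to 14420 and 546 to 2041 CPM in monocytes. The monocyte libraries fell into 3 sets by these markers. Libraries 5, 6, 10 and 11 were high in neutrophil markers (32807 to 48536 CPM). Of the others, 3, 4, 8 and 9 were high in erythroid markers (9044 to 14420 CPM) and 1, 2 and 7 were low (439 to 858 CPM). The neutrophil-high libraries held erythroid markers too, at 6622.5 to 9648 CPM. B-cell markers were highest in 1, 2 and 7 (1586 to 2041 CPM). Macrophage libraries were likewise grouped by dendritic cell markers, from the lowest (A, G, H and K) through the middle (B, E and L) to the highest (C, D, I and J). These sets were formed after the data were seen, and each holds libraries of both treatments. In bulk libraries, fewer cells of a type and less RNA per cell cannot be told apart.

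Apoe was the most abundant of the 10 genes in every group, on the scale of deposited TPM, which corrects for gene length and library total. Its level averaged 36298 ± 8215 TPM in macrophages with ox-LDL (SD, n = 6), 33710.1 ± 8275 in macrophages with vehicle (n = 5), 5396 ± 998 in monocytes with ox-LDL (n = 5) and 5335 ± 1097 in monocytes with vehicle (n = 6). This placed it 4th of all genes in both macrophage groups, 21st in monocytes with ox-LDL and 22nd with vehicle. Apoe reads made up 1.77% to 3.39% of all counts in macrophages with ox-LDL and 1.76% to 3.67% with vehicle, against 0.371% to 0.486% and 0.345% to 0.594% in monocytes. Pltp was second in every group, at 777 ± 194 and 638 ± 148 TPM in macrophages and 155 ± 45.6 and 151 ± 47.0 in monocytes, each pair with ox-LDL before vehicle. Its range lay under that of Apoe in all groups and overlapped that of the next gene, Nr1h2, in both monocyte groups.

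The order of the other genes differed between the cell types. In macrophages with ox-LDL, Abca1 followed at 249 ± 54.2 TPM, then Nr1h2 (159 ± 4.50), Abcg1 (116 ± 10.7), Lpcat3 (99.3 ± 5.39), Nr1h3 (59.4 ± 13.2), Apoc1 (36.4 ± 13.9) and Abca7 (25.3 ± 3.85). Abcg1 and Lpcat3 overlapped in range, as did Nr1h3 with Apoc1 and Apoc1 with Abca7. In macrophages with vehicle, Nr1h2 (161 ± 16.8 TPM) and Abca1 (153 ± 20.0) overlapped, and Abcg1 stood 7th at 60.9 ± 8.95 TPM. In monocytes the next places were held by the receptors Nr1h2 (151 ± 20.9 TPM with ox-LDL and 143 ± 24.2 with vehicle) and Nr1h3 (98.7 ± 42.2 and 91.2 ± 40.2). Abca7 came after them, at 53.1 ± 18.5 and 77.7 ± 27.3 TPM, and Abca1 stood 8th, at 17.6 ± 7.64 and 21.0 ± 9.88 TPM. Most neighbours in the monocyte order overlapped in range, 5 of 9 pairs with ox-LDL and 7 of 9 with vehicle.

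The TPM ratio of Abca1 to Abcg1 averaged 2.19 ± 0.624 in macrophages with ox-LDL and 2.57 ± 0.563 with vehicle, against 0.499 ± 0.243 in monocytes with ox-LDL and 0.847 ± 0.299 with vehicle. All 11 macrophage libraries had a ratio of at least 1.42, and all 11 monocyte libraries of at most 1.21. The TPM ratio of Nr1h3 to Nr1h2 averaged 0.373 ± 0.0886 and 0.491 ± 0.113 in macrophages and 0.643 ± 0.242 and 0.617 ± 0.216 in monocytes, and it was under 1 in all 22 libraries. This ratio did not separate the cell types: the neutrophil-high monocyte libraries 5, 6, 10 and 11 (0.357 to 0.407) and library 4 (0.558) lay inside the macrophage range of 0.242 to 0.618. These ratios are given as a description without a test.

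Apoc2, an activator of lipoprotein lipase, had counts near 0 in all groups. It had 1 count in library G, 1 each in C and E, 2 in library 10, 4 in library 3 and none in the other libraries. It failed the filter on low counts in every comparison, so 9 of the 10 genes were tested, and no fold is given for it. The part of its overlap with Gm44805 on the same strand in these low counts was not tested.

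**Figure D1:**
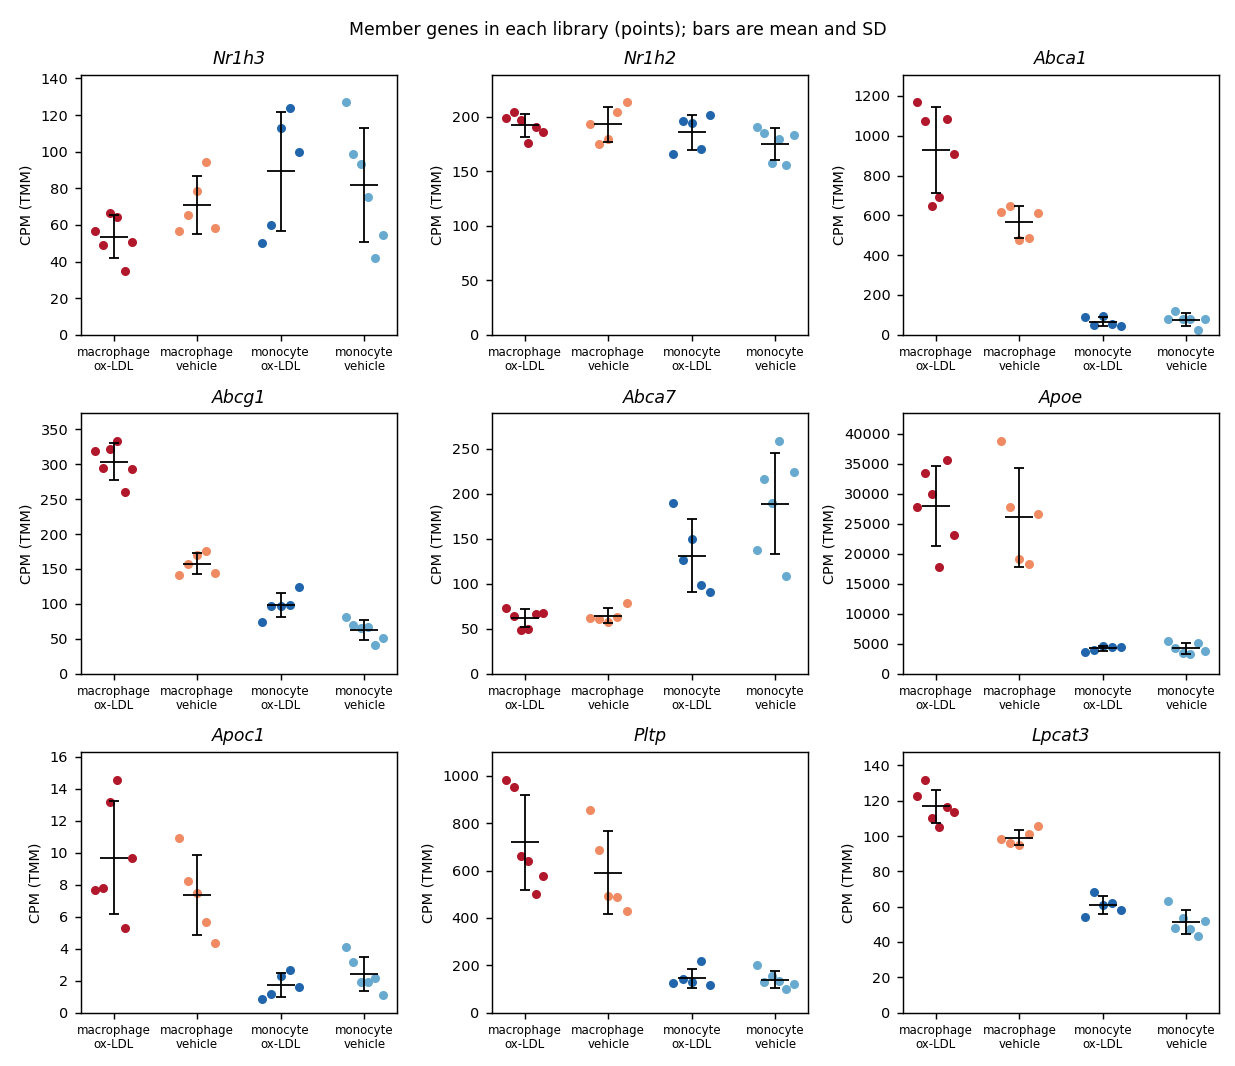
CPM (TMM factors) of the 9 tested genes in each library, with points for single libraries and bars for the group mean and SD, from macrophages with ox-LDL on the left to monocytes with vehicle on the right. Abcg1 in macrophages with ox-LDL sits at 260 to 333 CPM, above the 142 to 176 CPM of macrophages with vehicle, whereas Nr1h2 stays between 156 and 213 CPM in every library.

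In macrophages, ox-LDL was set against vehicle to ask how lipid loading changed the transcripts of these cells. The exporters Abcg1 and Abca1 rose, by 0.94 ± 0.08 and 0.71 ± 0.15 on the log2 scale (SE; edgeR quasi-likelihood test, adjusted p = 7.47e-05 and 0.0281). The receptors, Abca7, the apolipoproteins, Pltp and Lpcat3 did not pass the test at an adjusted p under 0.05. The 2 called genes of the 9 tested stand beside a background of 2.35% (342 of 14543 genes called), 0.976% being higher and 1.38% lower. The 2 genes were also those whose groups did not overlap, which held for 3.38% of all genes tested. The median log2 fold change of the 9 was 0.24, against 0.00 for all genes tested.

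Abcg1 was at 260 CPM in the lowest, 307 in the median and 333 in the highest macrophage library with ox-LDL. With vehicle it was at 142, 156, 170.1, 176 and 145 CPM in libraries A, B, C, D and E. Every library with ox-LDL lay above every library with vehicle, with a mean of 304 ± 26.3 CPM against 158 ± 15.2. The fold was 1.92 in the fit, and within the sets the ratio of ox-LDL to vehicle means was 2.06 in the dendritic-lowest, 1.95 in the middle and 1.89 in the dendritic-highest set. The call held in all 17 alternative settings, with an adjusted p of at most 0.00104.

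Abca1 ran from 649 through a median of 991 to 1167 CPM in macrophages with ox-LDL. With vehicle it was at 615, 647, 476, 486 and 611 CPM in libraries A to E. The groups touched closely without overlapping, the lowest ox-LDL library being I (649) and the highest vehicle library B (647). Both groups were lowest in the dendritic-highest set, where I and J had 649 and 694 CPM with ox-LDL and C and D had 476 and 486 with vehicle. Within the sets the ratio of means was 1.80 in the lowest (3 libraries with ox-LDL and 1 with vehicle). It was 1.45 in the middle (1 and 2) and 1.40 in the highest set (2 and 2). The call was lost in 9 of 17 alternatives while the log2 fold change stayed between 0.61 and 0.80. Without vehicle library B, C, D or E, or ox-LDL library G, H, K or L, the adjusted p in edgeR was 0.0537 to 0.0760. In 1 edgeR fit over all 4 groups it was 0.506, the highest of the 17 alternatives, whose lowest was 1.67e-04.

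**Figure D2:**
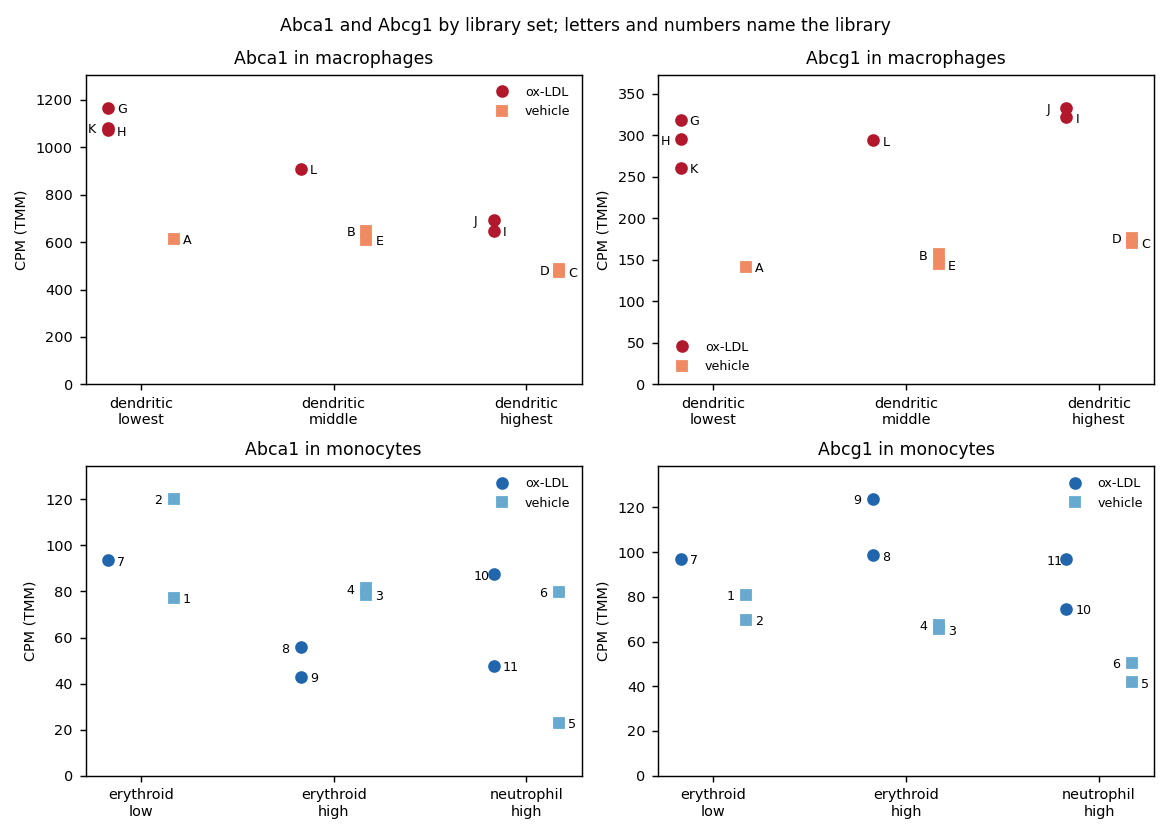
CPM of Abca1 (left) and Abcg1 (right) in macrophages (top) and monocytes (bottom), by library set; circles are libraries with ox-LDL and squares those with vehicle. In the macrophage panels every circle stands above every square, in whichever set, as with Abca1 at 1167 CPM in G and 615 in A. Abca1 in monocytes has circles and squares in no fixed order.

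With ox-LDL against vehicle in macrophages, 14.2% of all genes tested had an unadjusted p under 0.05 in edgeR, Nr1h3 (0.0311) among them. Nr1h3 had a log2 fold change of -0.40 ± 0.17 in macrophages (95% interval -0.76 to -0.04) and an adjusted p of 0.283 in edgeR. It was at 34.6, 53.6 and 66.3 CPM in the lowest, median and highest library with ox-LDL, against 56.7, 65.3, 78.8, 94.5 and 58.3 CPM in vehicle libraries A to E, and the groups overlapped. In each of the 3 sets the mean with ox-LDL was under that with vehicle, at a ratio of 0.754 to 0.824. Nr1h2 averaged 192 ± 10.3 CPM with ox-LDL and 193 ± 16.04 with vehicle, and the interval of its log2 fold change ran from -0.15 to 0.13.

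Lpcat3 averaged 117 ± 9.42 CPM with ox-LDL and 99.1 ± 4.45 with vehicle, a log2 fold change of 0.24 ± 0.06 that missed the threshold in edgeR (adjusted p = 0.0799). Its groups overlapped only in that vehicle library E (105.8) stood above ox-LDL library J (105.2). DESeq2 called it (0.23, adjusted p = 0.0229), the lowest of 17 alternatives whose adjusted p reached 0.483. Apoe averaged 27953 ± 6631 CPM with ox-LDL and 26104 ± 8259 with vehicle (0.10 ± 0.20), and its direction changed between library sets, with ratios of 0.834 to 1.28. Pltp averaged 719 ± 201 CPM with ox-LDL and 591 ± 176 with vehicle (0.28 ± 0.21), Apoc1 9.68 ± 3.54 and 7.34 ± 2.51 (0.40 ± 0.27), and Abca7 61.5 ± 9.94 and 64.3 ± 8.16 (-0.07 ± 0.11). Adjusted p-values of these 4 genes were 0.558 to 0.897.

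Other genes of the pathway were taken from 5 lists. Of 11 other LXR target genes tested, 1 rose and 0 fell (median 0.13): Mylip, a ubiquitin ligase that marks the LDL receptor for degradation, was at 148 ± 23.3 CPM with ox-LDL and 99.1 ± 5.91 with vehicle (0.57 ± 0.10, adjusted p = 0.00956 in edgeR). Of 8 genes of HDL remodelling and lysophospholipid acylation, 1 rose and 0 fell (median -0.20). That was Lipa, the lysosomal acid lipase that frees cholesterol from its esters, at 3603 ± 165 CPM with ox-LDL and 2923 ± 176 with vehicle (0.30 ± 0.06, adjusted p = 0.0248 in edgeR). Of 15 LXR partners and coregulators 0 were called (median -0.10), with Rxra, the retinoid X receptor most abundant here, at 395 ± 50.2 and 375 ± 49.2 CPM. Of 10 other ABC lipid transporters 0 were called (median -0.06), and the 1 other apolipoprotein tested, Apoc4, was not called. Macrophage, monocyte and dendritic cell marker sums overlapped between the treatments (dendritic cell markers 1.64 to 14.6 CPM with ox-LDL and 3.93 to 19.9 with vehicle), and their part in these results was not tested beyond the values within sets.

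The same comparison in monocytes gave 0 called genes among the 9 tested with edgeR, beside a background of 0.0241% (4 of 16575 genes). Of the 9, Abcg1 and Lpcat3 had an unadjusted p under 0.05, as did 10.4% of all genes tested, and DESeq2 called 1, Abcg1. The groups overlapped in each of the 9 genes, as they did in most genes tested (1.39% of all genes had groups without overlap). The median log2 fold change of the 9 was 0.09, against 0.00 for all genes tested.

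Abcg1 had 97.1, 98.5, 124, 74.8 and 96.9 CPM in ox-LDL monocyte libraries 7, 8, 9, 10 and 11. With vehicle its lowest, median and highest values were 41.7, 66.5 and 80.8 CPM. Only ox-LDL library 10 lay inside the vehicle range. In each of the 3 library sets, the ox-LDL libraries were above the vehicle libraries, at 1 or 2 libraries per treatment. The ratios were 1.67 (erythroid-high, 2 against 2), 1.29 (erythroid-low, 1 against 2) and 1.86 (neutrophil-high, 2 against 2). The share of all genes with such an order within sets was not computed. The log2 fold change was 0.68 ± 0.16 (95% interval 0.33 to 1.03; edgeR adjusted p = 0.212). Of 18 alternatives 3 called it: DESeq2 (0.67, adjusted p = 0.0367), 1 edgeR fit over all 4 groups (0.65, 0.0226), and edgeR with library set as a covariate, a setting added once the data had been seen (0.73, 0.0170). Over the 18 its adjusted p ran from 0.0170 to 0.507. The macrophage markers also stood higher in ox-LDL monocytes, at 9574 to 14783 CPM against 6604 to 9696 with vehicle, and their part in this value was not tested.

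Abca1 showed no such pattern in monocytes. It was at 93.5, 55.8, 43.0, 87.5 and 47.8 CPM in ox-LDL libraries 7 to 11, against a lowest value of 22.9, a median of 79.2 and a highest of 120.2 with vehicle. The vehicle range enclosed every ox-LDL library. The log2 fold change was -0.19 ± 0.32, with a 95% interval of -0.88 to 0.50 (edgeR adjusted p = 0.896), and the set ratios were 0.618, 0.947 and 1.32 in the erythroid-high, erythroid-low and neutrophil-high sets.

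Abca7 averaged 131 ± 40.4 CPM in monocytes with ox-LDL and 189 ± 56.3 with vehicle, a log2 fold change of -0.49 ± 0.24 (95% interval -1.01 to 0.02; edgeR adjusted p = 0.501). Its ratio was under 1 in each of the 3 sets, from 0.423 in the erythroid-high set to 0.951 in the neutrophil-high set. The treatments overlapped in the erythroid-low and neutrophil-high sets. Lpcat3 averaged 60.7 ± 5.05 CPM with ox-LDL and 51.1 ± 6.75 with vehicle (0.27 ± 0.12, adjusted p = 0.430 in edgeR). Its ratio was 1.10 to 1.28 in the 3 sets, with overlap in the erythroid-low set. Nr1h3 was lowest in the neutrophil-high set: libraries 10 and 11 had 50.3 and 59.9 CPM with ox-LDL and 5 and 6 had 41.8 and 54.3 with vehicle, while the other 7 monocyte libraries had 75.2 to 127 CPM. Its log2 fold change was 0.16 ± 0.28. The interval ran from -0.46 to 0.77.

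Nr1h2 averaged 186 ± 16.2 CPM in monocytes with ox-LDL and 175 ± 14.8 with vehicle (0.11 ± 0.10), and Apoe 4215 ± 401 and 4209 ± 884 (0.02 ± 0.16). Pltp averaged 146 ± 40.4 CPM with ox-LDL and 140 ± 35.8 with vehicle (0.09 ± 0.20). Its highest libraries were 8 with ox-LDL (216 CPM) and 1 with vehicle (202 CPM). Apoc1 averaged 1.72 ± 0.762 and 2.39 ± 1.07 CPM (-0.46 ± 0.36). Of the 5 pathway lists, 0 genes were called. Lpl, the lipoprotein lipase, came nearest among the LXR targets, at 456 ± 64.6 CPM with ox-LDL and 264 ± 44.5 with vehicle (0.81 ± 0.14, edgeR adjusted p = 0.0624), and Lipa was at 1279 ± 305 and 819 ± 140 CPM (0.67 ± 0.17, 0.236).

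**Figure D3:**
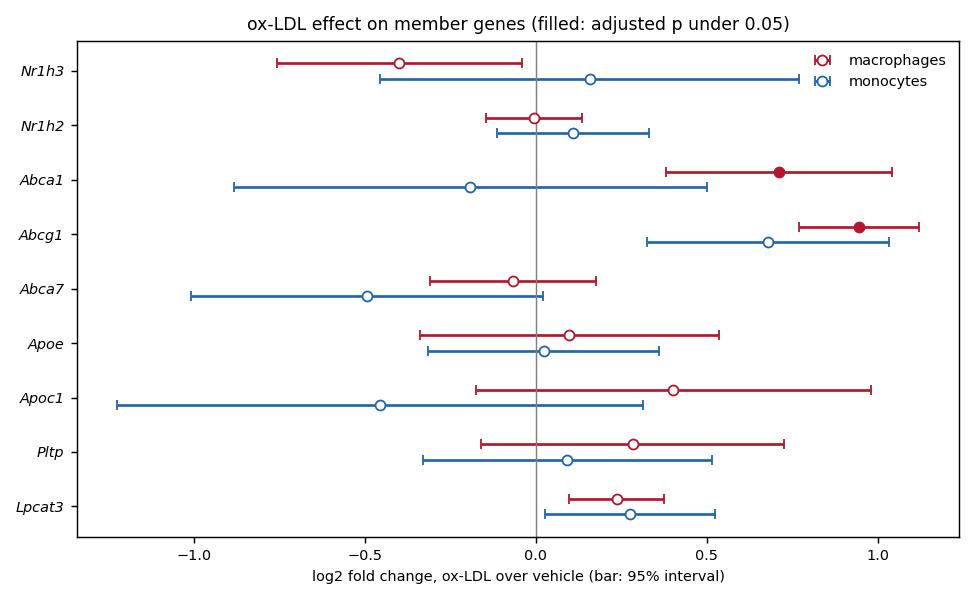
Log2 fold change of ox-LDL over vehicle for the 9 tested genes in macrophages (red, upper) and monocytes (blue, lower), with 95% intervals; filled points have an adjusted p under 0.05. The 2 filled points are Abca1 (0.71) and Abcg1 (0.94) in macrophages, and the widest intervals are those of Abca1 and Apoc1 in monocytes.

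Whether ox-LDL acted differently in macrophages than in monocytes was tested as an interaction over all 4 groups, macrophages minus monocytes. It called 0 of the 9 genes with edgeR and 0 with DESeq2, beside a background of 0.063% (11 of 17466 genes). Abca1 had the largest difference of the 9, 0.94 ± 0.39 on the log2 scale (95% interval 0.13 to 1.75; unadjusted p = 0.0250, adjusted p = 0.635), and it was the 1 gene of the 9 with an unadjusted p under 0.05, as 7.22% of all genes had. For Abcg1 the difference was 0.29 ± 0.20 (interval -0.11 to 0.70), so its call in macrophages only is not shown to be a difference between the cell types. Apoc1 differed by 0.88 ± 0.47, Nr1h3 by -0.53 ± 0.36 and Abca7 by 0.46 ± 0.28, with intervals that include 0. For Lpcat3 it was -0.01 ± 0.13, with an interval of -0.28 to 0.25. The median over the 9 was 0.22, against -0.01 for all genes tested.

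The comparison of macrophages with monocytes asked how the cell types differed at the same treatment. With vehicle, 6 of the 9 tested genes were higher in macrophages, 1 was lower and the receptors Nr1h2 and Nr1h3 were not called. With ox-LDL, the same 6 genes were higher and 2 were lower. Beside these counts, 63.7% of all 16288 genes tested were called with vehicle (28.5% higher and 35.1% lower) and 65.4% of 15825 with ox-LDL (30.3% and 35%). The groups did not overlap in 7 of the 9 genes at either treatment, beside 49% and 49.4% of all genes tested. The median log2 fold change of the 9 was 1.31 with vehicle and 1.60 with ox-LDL, against -0.09 and -0.07 for all genes tested. The 2 comparisons share no library, but both set libraries nearly free of neutrophil, erythroid and dendritic cell markers against libraries rich in them, and the part of those cells in the results was not tested.

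Abca1 stood furthest apart. Its mean was 567 ± 79.8 CPM in vehicle macrophages and 76.7 ± 31.0 in vehicle monocytes, a log2 difference of 2.87 ± 0.30, and 929 ± 217 against 65.5 ± 23.3 CPM with ox-LDL, a log2 difference of 3.79 ± 0.26 (edgeR adjusted p = 1.55e-06 and 4.63e-08). The lowest macrophage library had 476 CPM and the highest monocyte library 120.2. Abcg1 was higher by 1.31 ± 0.15 with vehicle and 1.60 ± 0.12 with ox-LDL, and its nearest libraries were 142 CPM in vehicle macrophages and 80.8 in vehicle monocytes. Abca7 was the exception among the transporters, at 64.3 ± 8.16 CPM in macrophages and 189 ± 56.3 in monocytes with vehicle (-1.57 ± 0.20) and 61.5 ± 9.94 and 131 ± 40.4 with ox-LDL (-1.13 ± 0.19; adjusted p = 1.06e-05 and 1.21e-04). Its lowest monocyte libraries were 9 with ox-LDL (91.2 CPM) and 5 with vehicle (109), both above the highest macrophage library (78.4).

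The apolipoproteins and Pltp were higher in macrophages. Apoe was at 18224 to 38740 CPM in vehicle macrophages and 3253 to 5448 in vehicle monocytes, a log2 difference of 2.61 ± 0.21, and with ox-LDL the difference was 2.695 ± 0.189. Apoc1 was low throughout, at 7.34 ± 2.51 CPM in macrophages and 2.39 ± 1.07 in monocytes with vehicle (1.59 ± 0.32), and at 9.68 ± 3.54 and 1.72 ± 0.762 with ox-LDL (2.46 ± 0.34). The vehicle groups of Apoc1 nearly touched, with macrophage library E at 4.36 CPM and monocyte library 1 at 4.10. Pltp was higher by 2.06 ± 0.21 with vehicle and 2.27 ± 0.22 with ox-LDL, and Lpcat3 by 0.93 ± 0.10 and 0.91 ± 0.09. The adjusted p of these 4 genes in edgeR was at most 5.60e-04.

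The receptors differed least. Nr1h2 was within 0.12 ± 0.09 of its monocyte level with vehicle and 0.02 ± 0.08 with ox-LDL on the log2 scale, with intervals of -0.09 to 0.32 and -0.16 to 0.20 (edgeR adjusted p = 0.291 and 0.870). The sign of the second value turned with other scalings. Nr1h3 averaged 53.6 ± 11.6 CPM in macrophages and 89.4 ± 32.6 in monocytes with ox-LDL, a called log2 difference of -0.77 ± 0.24 (adjusted p = 0.0112) between groups that overlapped. That call held in 17 of 17 alternatives, with an adjusted p of at most 0.0369. With vehicle, Nr1h3 averaged 70.7 ± 15.9 and 81.7 ± 31.2 CPM (-0.23 ± 0.25, adjusted p = 0.440). With monocyte libraries 5, 6, 10 and 11 left out, a setting added once the data had been seen, the vehicle difference was called at -0.51 ± 0.17 (edgeR adjusted p = 0.0212; 0.0212 to 0.815 over 17 alternatives).

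**Figure D4:**
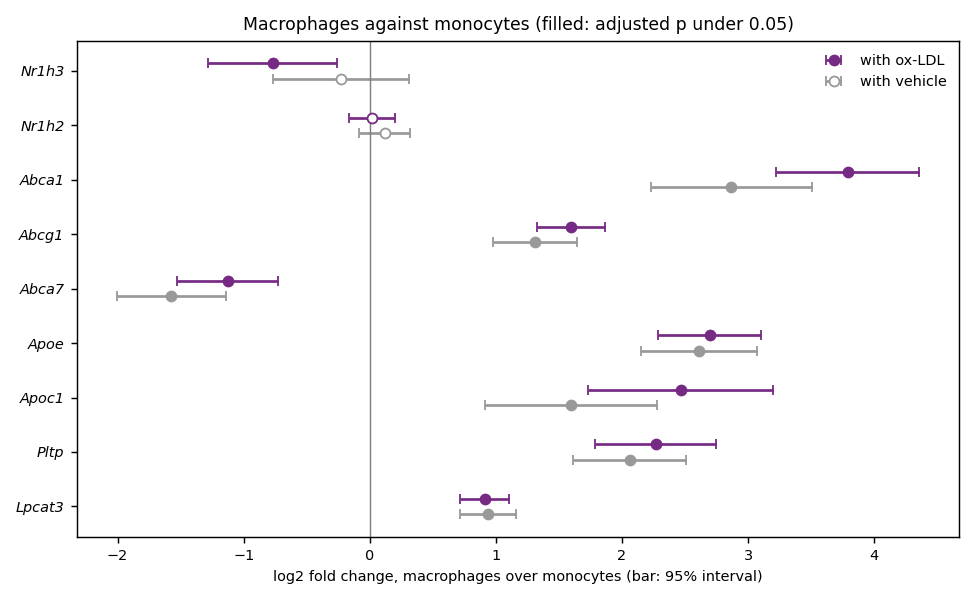
Log2 fold change of macrophages over monocytes for the 9 tested genes with ox-LDL (purple, upper) and with vehicle (grey, lower), with 95% intervals; filled points have an adjusted p under 0.05. Abca1 lies furthest to the right (3.79 with ox-LDL and 2.87 with vehicle), Abca7 lies left of 0 at both treatments, and Nr1h2 is open at both.

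Among the partners of the receptors, 12 of 16 genes were called with vehicle (5 higher in macrophages and 7 lower, median 0.05) and 11 with ox-LDL (5 and 6, median 0.07). Rxra was at 375 ± 49.2 CPM in macrophages and 86.1 ± 30.1 in monocytes with vehicle (2.10 ± 0.26), and at 395 ± 50.2 and 69.9 ± 18.4 with ox-LDL (2.46 ± 0.18). Gps2, a subunit of a corepressor complex, was lower in macrophages at both treatments (-0.75 ± 0.13 with vehicle and -0.71 ± 0.09 with ox-LDL). Rxrg was called lower, but it averaged 0.00886 CPM in vehicle macrophages and 0.397 in vehicle monocytes, so its fold is not given. Of 11 other LXR targets, 4 were higher and 2 lower with vehicle (median 0.28), and 6 were higher and 1 lower with ox-LDL (median 0.76). Mertk, a receptor for apoptotic cells, was at 290.4 ± 16.9 CPM in macrophages and 66.3 ± 25.8 in monocytes with vehicle, Lpl at 790.1 ± 181 and 264 ± 44.5, and Scd1, a fatty acid desaturase, at 0.602 ± 0.422 and 20.3 ± 11.9.

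Of 11 other ABC lipid transporters tested, 7 were higher in macrophages and 1 lower with vehicle (median 1.71), and 8 were higher and 1 lower with ox-LDL (median 1.97). Abca2 was at 148 ± 26.1 CPM in macrophages and 28.4 ± 7.34 in monocytes with vehicle, Abca9 at 76.4 ± 13.6 and 10.2 ± 5.06, and Abca3, which loads phospholipid into lamellar bodies, at 144 ± 9.24 and 46.5 ± 13.5. The 1 lower gene was Abca13, which averaged 0.0441 CPM in vehicle macrophages and 3.24 in vehicle monocytes. Both other apolipoproteins tested were called at each treatment: Apoc4 was higher in macrophages, at 0.697 ± 0.340 CPM against 0.348 ± 0.140 with vehicle, and clusterin (Clu) was lower, at 0.214 ± 0.136 against 29.6 ± 8.52. Of 8 genes of HDL remodelling and acylation, 3 were higher and 2 lower with vehicle (median 0.56), and 2 and 2 with ox-LDL (median 0.30). Of the listed acyltransferases that share the Lpcat name with Lpcat3, Lpcat1 and Lpcat4 were lower in macrophages. Lpcat1 was at 95.9 ± 8.83 CPM in macrophages and 251 ± 35.7 in monocytes with vehicle (-1.41 ± 0.12), and Lpcat4 at 14.5 ± 3.50 and 27.4 ± 12.7 (-0.94 ± 0.28; edgeR adjusted p at most 0.00888 for both). Lpcat2 averaged 178 CPM in macrophages and 109 in monocytes with vehicle, and 122 and 96.8 with ox-LDL. Scarb1, the HDL receptor, was at 153 ± 25.7 CPM in macrophages and 61.3 ± 17.03 in monocytes with vehicle (1.30 ± 0.20).

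Single genes that varied most like a member were named for 4 of the 10. For each of 8471 genes that averaged 5 CPM or more in both cell types, Pearson's r of log2 CPM with the member was computed over the 11 macrophage and the 11 monocyte libraries apart, and genes were ranked by the smaller value. Nearest to Abca1 were Foxred2 (r = 0.888 in macrophages and 0.883 in monocytes), Nbas and Irak1. Nearest to Abcg1 were Eif4e (0.892 and 0.885), Ap3m1 and Ybx3. Nr1h3 had its closest genes at higher values, Amz1 (0.929 and 0.919), Slc46a1 (0.919 and 0.928) and Meis3 (0.918 and 0.954), whereas for Apoe they were Vrk3 (0.802 and 0.902), Bin1 and Snrpb. The libraries within a cell type share treatment and library set, which enter these values, so they are a description of these libraries.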

How the data were processed

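Per the submitters' processing notes, the authors used STAR 2.7.9a, Subread's featureCounts 2.0.3 and the genome GRCm38. Per the labels' protocols, libraries were made from 10 ng of RNA with a RIN above 8.0 by a SMARTer Ultra Low kit. Each of 22 libraries has a table of 55487 Ensembl genes, and its deposited counts are whole reads per gene without normalization. The deposited CPM rescale them to a fixed library total, the deposited FPKM divide CPM by gene length, and the deposited TPM do so with a fixed total. How strand and reads with several places were handled, and which annotation release was used, is not given in the sources used here. The deposited TPM set levels of different genes side by side, while the deposited CPM and FPKM were not used here.

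Each comparison was fitted to the counts of its own groups with edgeR 4.0.16 (R 4.3.3): TMM factors, filterByExpr, a 2-sided quasi-likelihood F test and Benjamini-Hochberg adjustment over all tested genes. Genes under an adjusted p of 0.05 are termed called. The fits were first tested on simulated data. Standard errors of log2 fold changes were derived from F, and CPM printed here use TMM factors over all 22 libraries. The members and lists were chosen with earlier results of these data known. All 10 members were named, and each list gave up to 4 called genes of lowest p, or its 2 most abundant genes if none was called. Ahsp, a listed erythroid marker, had no row. Values of 2 single listed genes are not reported here. Alternatives were RLE factors, total counts, DESeq2 1.42.0, no filter on low counts, 1 fit over all 4 groups and leaving out each library. A covariate for library set and leaving out the 4 neutrophil-high libraries were added once the data had been seen. No molecular identifiers are named in the labels, so what depth tells of precision covers counting error only.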

Additional observations from a re-analysis of the deposited data

Results flagged for a closer look

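In each group of 5 or 6 libraries, the highest or lowest value was compared with the others, and a gap too large a share of the group's range for Dixon's 95% limit marked 5 of the 40 gene and group pairs. Chance marks about 1 in 20 such groups if their values are normally distributed. A group with counts in 1 library and 0 in the rest is always marked, as in 3 of the 5. Abca7 stood high in vehicle macrophage library E, at 78.4 CPM, and Pltp in ox-LDL monocyte library 8, at 216 CPM. The other 3 were Apoc2, where single libraries had 1 to 4 counts and the rest of their group 0: library G of macrophages with ox-LDL (0.0272 CPM), library 10 of monocytes with ox-LDL (0.0444 CPM) and library 3 of monocytes with vehicle (0.0788 CPM).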

How the results depend on the processing

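No paired analysis was possible because the groups share no replicate numbers. Of 873 alternative values of single genes, 830 kept their direction and side of the threshold, 29 changed sign, 9 lost a call (all Abca1 in macrophages) and 5 gained one; causes were not tested. In monocytes, 4 genes called became 9 with no filter, 161 with DESeq2, 259 in 1 fit over all 4 groups, 227 with library set as a covariate and 0 without the 4 neutrophil-high libraries, with 1 member called in the DESeq2, 4-group and covariate fits. In macrophages, 342 genes became 698 with DESeq2, 80 in the 4-group fit (1 member) and 768 with the covariate. For the difference of effects, 11 became 5 with total counts, 60 with DESeq2, 85 with the covariate and 129 without the neutrophil-high libraries. Leaving out single libraries gave 0 to 0 members and 0 to 8 genes in monocytes, 1 to 2 and 150 to 348 in macrophages, 7 to 7 and 9835 to 10299 between the cell types with vehicle, 8 to 8 and 9775 to 10419 with ox-LDL, and 0 to 0 and 1 to 44 for the difference.

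The sign changes were near 0. In monocytes Apoe was at -0.022 with total counts and at -0.045 to 0.108 without single libraries, and Pltp at -0.090 to 0.225. In macrophages Apoe was at -0.0030 with the covariate and at -0.0086 to 0.283 without single libraries, Abca7 at -0.122 to 0.014 and Nr1h2 at -0.038 to 0.032. Between the cell types with ox-LDL, Nr1h2 was at -0.011 with RLE factors, -0.080 with total counts, -0.011 with DESeq2, -0.030 without the neutrophil-high libraries and -0.029 to 0.042 without single libraries. For the difference of effects, Apoe was at -0.053 with the covariate, -0.038 without the neutrophil-high libraries and -0.0083 to 0.282 without single libraries, and Lpcat3 at 0.043 without the neutrophil-high libraries and -0.078 to 0.031 without single libraries. Apoc2 had too few counts for any test, and Apoc1 rested on 39 to 188 counts per monocyte library.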
